A study of Rattus norvegicus with 6 samples.

Results

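The genes described here encode the proteins that copy DNA in S phase and resynthesise it during homologous repair. They are a list of 38 gene symbols chosen for their function, with earlier results of these data known. Their RNA was measured in rat renal cortex after dosing with anthraquinone, a tricyclic quinone. Of the 38, 34 had at least 1 probe on the array, 61 probes in all, and 30 had a probe bright enough to test. The whole comparison held 32663 entries, 11831 of them with a gene symbol. The 6 animals were male Sprague-Dawley (Crl:CD(SD)) rats, 5 weeks old at purchase. A control group of 3 received corn oil, the vehicle, and 3 received anthraquinone at 1000 mg/kg/day, each for 4 weeks. RNA of each rat, labelled with Cy3, was read on 1 array. The series' design text calls the animals of a group biological replicates, so the p-values measure the spread between animals. Precision is limited by having only 3 arrays per group.

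A cell about to divide licenses its replication origins by loading the ring-shaped MCM helicase with the help of ORC, Cdc6 and Cdt1. Cdc45 and the GINS complex switch the helicase on. Polymerase alpha with its primase lays down primers, and polymerases delta and epsilon, held by the PCNA clamp that the RFC loader opens, extend them. Ribonucleotide reductase, thymidylate synthase, thymidine kinase and dUTPase supply the nucleotides. BRCA and Fanconi proteins protect and repair stalled forks. Most cells of an adult kidney are not dividing, and tubule cells re-enter the cycle after injury. Many of these genes share control by E2F transcription factors.

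The promoter sequences were therefore searched for E2F sites. RefSeq (rat assembly GRCr8) gave a promoter window, 250 bases before the annotated start to 50 bases after it, for 34 of the 38 genes. Some genes have several starts, so these were 37 windows. The words TTTCCCGC, TTTGGCGC, TTTCGCGC and TTTGCCGC, which spell common E2F sites, were searched on both strands. At least 1 of them lay in 16 of the 37 windows (43.2%), against 2.14% of all 33469 windows. Overlapping words on the 2 strands were counted as separate matches, which does not change the count of windows. The CCAAT box, searched likewise, lay in 21 of the 37 windows (56.8%), against 37.49% of all. The windows of these genes were also richer in G and C, with a median of 59.6% before the start against 51.2% for all windows, and E2F words are themselves rich in G and C. The 250 bases before the start are printed for 6 genes, 5′ to 3′ in the direction of the gene, with E2F words and CCAAT boxes in capitals. Tk1, Tyms and Pcna are shown because their groups did not overlap, Pola1 because it had the most negative difference, and Mcm2 and Mcm6 because E2F words on both strands overlap in them. All 6 genes lie on the minus strand, at chr10:103544778-103545027 (Tk1), chr9:120776084-120776333 (Tyms), chr3:139955821-139956070 (Pcna), chrX:62342356-62342605 (Pola1), chr4:122918095-122918344 (Mcm2) and chr13:42404353-42404602 (Mcm6).
Tk1: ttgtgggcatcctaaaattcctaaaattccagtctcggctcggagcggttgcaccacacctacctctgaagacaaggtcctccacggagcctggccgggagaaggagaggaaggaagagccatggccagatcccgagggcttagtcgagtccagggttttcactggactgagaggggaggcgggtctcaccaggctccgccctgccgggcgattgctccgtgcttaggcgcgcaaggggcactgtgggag
Tyms: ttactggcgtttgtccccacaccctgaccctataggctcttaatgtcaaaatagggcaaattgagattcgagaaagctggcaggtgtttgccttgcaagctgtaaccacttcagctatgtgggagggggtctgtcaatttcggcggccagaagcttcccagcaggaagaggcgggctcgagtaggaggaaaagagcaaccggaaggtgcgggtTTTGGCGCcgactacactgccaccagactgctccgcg
Pcna: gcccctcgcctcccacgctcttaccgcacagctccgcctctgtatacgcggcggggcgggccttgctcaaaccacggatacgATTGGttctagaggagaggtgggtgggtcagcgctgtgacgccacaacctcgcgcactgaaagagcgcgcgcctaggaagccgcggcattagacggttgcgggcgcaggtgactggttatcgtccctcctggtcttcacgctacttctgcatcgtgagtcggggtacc
Pola1: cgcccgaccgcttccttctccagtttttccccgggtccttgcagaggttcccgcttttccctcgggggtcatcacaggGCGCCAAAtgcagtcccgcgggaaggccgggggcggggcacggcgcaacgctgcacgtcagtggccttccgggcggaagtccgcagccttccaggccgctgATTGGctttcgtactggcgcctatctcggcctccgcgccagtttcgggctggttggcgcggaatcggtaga
Mcm2: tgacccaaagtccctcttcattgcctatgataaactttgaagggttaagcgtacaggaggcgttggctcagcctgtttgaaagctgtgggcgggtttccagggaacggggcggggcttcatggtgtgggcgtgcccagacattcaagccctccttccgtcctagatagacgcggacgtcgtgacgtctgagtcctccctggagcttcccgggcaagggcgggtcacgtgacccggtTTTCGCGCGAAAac
Mcm6: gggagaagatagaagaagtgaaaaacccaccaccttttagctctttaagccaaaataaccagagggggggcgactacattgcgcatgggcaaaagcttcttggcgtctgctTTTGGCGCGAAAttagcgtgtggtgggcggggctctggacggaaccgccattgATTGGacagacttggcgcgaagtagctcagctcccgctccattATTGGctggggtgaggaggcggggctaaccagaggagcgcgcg
The E2F word of Tyms ran from base -37 to -30 before the start, and that of Pola1 from -172 to -165. In Mcm2 the pair of overlapping words ran from -14 to -3, and in Mcm6 from -139 to -128. Pcna held a CCAAT box from -168 to -164 and none of the E2F words in its window, and the Tk1 window held neither motif. A match is a description of letters and not a measured binding site. Of the tested genes, 14 had an E2F word in the window, with log2 differences from -0.39 to 0.21 and a median of -0.06. Another 13 had a window without one, with differences from -0.10 to 0.37 and a median of -0.01.

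Levels below are normalized log2 intensities, which are the log2 processed intensity of a probe minus the 75th percentile of its array. A difference is anthraquinone minus corn oil on that scale. A gene is represented by its brightest probe, and levels of different genes cannot be compared because probes differ in response. Signal scale and sensitivity differed somewhat between the groups. The 75th percentile lay between 903 and 1191 in corn oil and between 844 and 880 in anthraquinone, while probes called well above background made up between 68.7 and 70.7% of those on the corn oil arrays and between 64.2 and 66.1% of those on the anthraquinone arrays. The part of either in the results was not tested. All 10 proximal tubule markers, such as Lrp2 and Slc34a1, and all 5 podocyte markers were well above background on all 6 arrays, so the defining cells of renal cortex were represented.

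No replication or repair gene tested passed the threshold, and all 30 differences were smaller than 0.5 on the log2 scale, as were those of 92.6% of all entries. By limma with Benjamini-Hochberg adjustment over all entries, 0 of the 30 tested genes were higher and 0 were lower at an adjusted p under 0.05, where 0.0276% of all entries were called, 0.0153% higher and 0.0122% lower. The lowest adjusted p was 0.182, for Tk1. At an unadjusted p under 0.05, 2 were higher (Tk1 and Tyms) and 1 was lower (Pola1), where 17.1% of all entries passed, 9.47% higher and 7.65% lower. Among entries with a symbol these shares were 15.8%, 8.51% and 7.32%. Differences ran from -0.39 (Pola1) to 0.37 (Tk1), with a median of -0.01 against 0.01 for all entries, and 13 of the 30 were above 0 against 51.6% of all entries and 51.7% of those with a symbol. The 95% confidence intervals of all 30 lay within 1 log2 unit of no difference, and those of 19 within 0.5. Changes of less than that size are not excluded by these arrays. In bulk tissue, fewer cells of a type and less RNA per cell cannot be told apart.

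**Figure D1:**
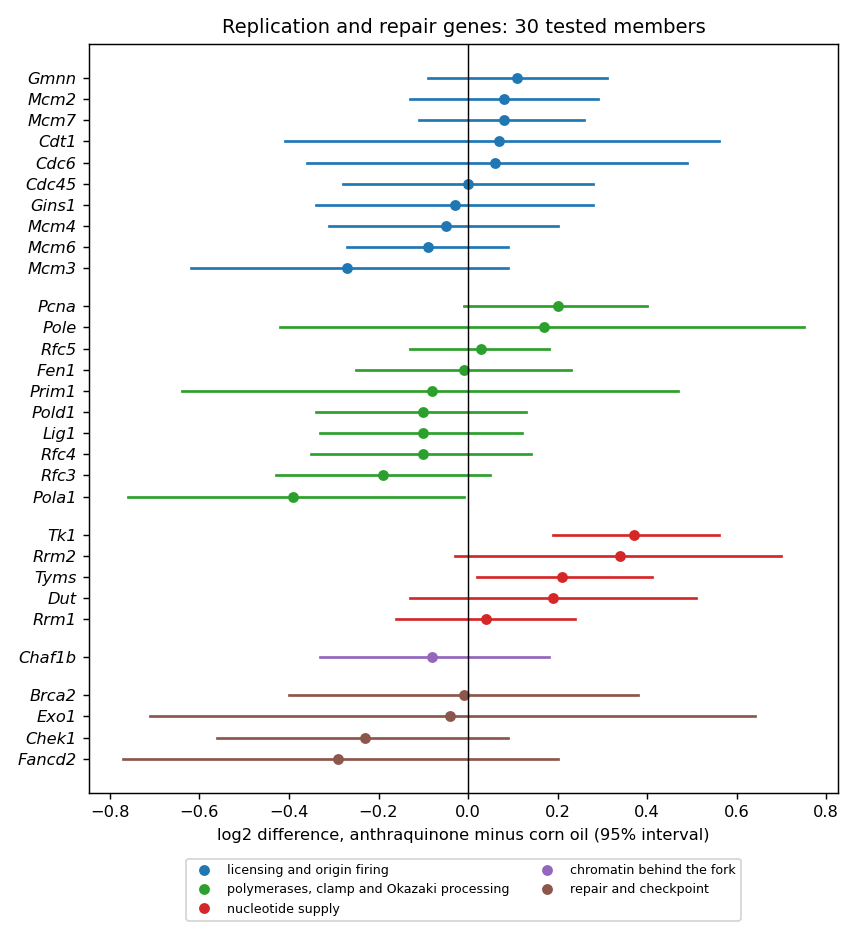
Log2 difference between anthraquinone and corn oil (x axis) for the 30 tested genes, grouped by role, with points for the limma estimate and lines for its 95% confidence interval (3 arrays per group). Nucleotide supply genes lie above 0, from 0.04 (Rrm1) to 0.37 (Tk1), and the repair and checkpoint genes below 0, from -0.29 (Fancd2) to -0.01 (Brca2).

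Nucleotide supply was the role with the most positive values: all 5 of its genes had a difference above 0, with a median of 0.21, and 0 of 5 passed the test. Tk1 encodes cytosolic thymidine kinase, which salvages thymidine and is made in dividing cells. Values are given throughout in the order of replicates 1, 2 and 3. The controls read 0.67, 0.65 and 0.62, and the treated animals 1.08, 0.92 and 1.05. All anthraquinone arrays lay above all corn oil arrays. The difference was 0.37 ± 0.08 (SE, n = 3 per group, 95% confidence interval 0.19 to 0.56, limma adjusted p = 0.182), a 1.30-fold higher mean. The second Tk1 probe read -1.31, -1.19 and -1.32 in the controls and -0.92, -0.93 and -0.92 in treated animals, a difference of 0.35 ± 0.07 (SE), again without overlap.

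Rrm2 encodes the small subunit of ribonucleotide reductase, which makes deoxyribonucleotides in S phase. It read 1.00, 0.87 and 0.52 in the controls and 1.31, 1.01 and 1.09 in treated animals. The groups did not overlap, but corn oil replicate 1 and anthraquinone replicate 2 differed by only the last digit. The difference was 0.34 ± 0.15 (SE, interval -0.03 to 0.70, limma adjusted p = 0.318), and without corn oil replicate 3 it was 0.20. Rrm2 had 4 tested probes, with differences from 0.09 to 0.47, and the groups overlapped on all but the brightest. Tyms encodes thymidylate synthase, the enzyme that makes thymidine monophosphate from its deoxyuridine counterpart. It read -0.59, -0.51 and -0.45 in the controls and -0.30, -0.38 and -0.23 in anthraquinone, without overlap. The difference was 0.21 ± 0.08 (SE, interval 0.02 to 0.41, limma adjusted p = 0.260). Dut, whose dUTPase keeps uracil out of DNA, and Rrm1, the large reductase subunit, had differences of 0.19 ± 0.13 and 0.04 ± 0.08 (SE), with overlapping groups. Rrm1 changed sign in 3 of the 17 settings of the closing section.

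The licensing and firing genes had differences from -0.27 to 0.11. Of 13, 10 were tested, 0 passed, and 0 had groups that did not overlap on the brightest probe. Of all entries, 15.0% were without overlap with anthraquinone higher and 10.2% with anthraquinone lower. Their median was 0.03. Mcm3, a subunit of the replicative helicase, had the difference farthest from 0 in this role, -0.27 ± 0.15 (SE, interval -0.62 to 0.09, limma adjusted p = 0.403). It read -0.17, -0.35 and -0.40 in the controls and -0.28, -0.66 and -0.77 in anthraquinone. Anthraquinone replicates 2 and 3 lay below every corn oil array, and replicate 1 lay among them. Leaving out anthraquinone replicate 3 gave -0.16, and leaving out replicate 1 of that group gave -0.41. All 4 Mcm3 probes were negative, from -0.35 to -0.02.

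Mcm2, another helicase subunit and a common proliferation marker, read -0.99, -0.79 and -0.87 in the controls and -0.71, -0.85 and -0.85 in treated animals, a difference of 0.08 ± 0.09 (SE). The groups overlapped on this brightest probe. The other Mcm2 probes gave -0.27 ± 0.12 (SE) and -0.01, so the probes did not share a sign. On the probe at -0.27 the anthraquinone arrays lay wholly below the controls, and on the probe at -0.01 the groups overlapped. Mcm6 (-0.09), Mcm4 (-0.05), Mcm7 (0.08), the origin-loading factor genes Cdc6 (0.06) and Cdt1 (0.07), and the helicase activator genes Gins1 (-0.03) and Cdc45 (0.00) differed by less than 0.1 on the log2 scale. Gmnn, whose product geminin blocks Cdt1 and so prevents a second round of licensing, had a difference of 0.11 ± 0.08 (SE). Mcm4 had 3 dimmer probes, named after their values were seen, that gave 0.02, 0.35 and 0.39 with SEs of 0.19, 0.32 and 0.56. On the pair with the larger differences anthraquinone replicate 2 was the highest array, at -3.67 and -3.70. The origin recognition gene Orc1 was not well above background on any array. The GINS subunit gene Gins2 was well above background on 2 corn oil arrays and 0 anthraquinone arrays and was not tested. Mcm5, a helicase subunit gene, had no matched probe and was not analysed here.

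Of the polymerase, clamp and Okazaki fragment genes, 3 of the 10 tested had a difference above 0 and 0 passed. Pcna encodes the sliding clamp that holds polymerases on DNA and also serves in repair synthesis. It read 1.47, 1.44 and 1.30 in the controls and 1.65, 1.52 and 1.62 in treated animals, without overlap. The difference was 0.20 ± 0.08 (SE, interval -0.01 to 0.40, limma adjusted p = 0.305). The second Pcna probe read 0.16, 0.09 and -0.03 in the controls and 0.08, 0.07 and 0.22 in treated animals, a difference of 0.05 ± 0.09 (SE) with overlap. The probes of Pcna thus differed in size. Pola1, named after its values were seen, encodes the catalytic subunit of polymerase alpha, which starts each new strand. It read -3.40, -3.12 and -3.05 in the controls and -3.31, -3.75 and -3.69 in anthraquinone. Anthraquinone replicates 2 and 3 lay below every corn oil array, while replicate 1 lay above corn oil replicate 1. The difference was -0.39 ± 0.15 (SE, interval -0.76 to -0.01, limma adjusted p = 0.281), and the second probe gave -0.45.

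The other genes of this role were closer to 0 on their brightest probes. The clamp loader genes Rfc3, Rfc4 and Rfc5 had differences of -0.19 ± 0.10, -0.10 ± 0.10 and 0.03 ± 0.07 (SE). The leading-strand polymerase gene Pole had 0.17 ± 0.24 and the lagging-strand polymerase gene Pold1 -0.10 ± 0.10 (SE). The flap endonuclease gene Fen1 had -0.01, the DNA ligase gene Lig1, which seals Okazaki fragments, -0.10, and the primase gene Prim1 -0.08. The second Fen1 probe gave -0.32 ± 0.21 (SE), with overlapping groups. Prim1, named for its spread after its values were seen, varied among animals within both groups, with levels of 0.48, 0.08 and -0.01 in the controls and 0.11, 0.49 and -0.30 in anthraquinone. Pola2, the second subunit gene of polymerase alpha, was well above background on 2 corn oil arrays and 0 anthraquinone arrays and was not tested.

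All 4 tested repair and checkpoint genes had negative differences, with a median of -0.13, and 0 of 4 passed. Over the 17 settings of the closing section, Brca2 changed sign in 5, Exo1 in 4, and Fancd2 and Chek1 in 1 each. Fancd2, whose product is loaded at DNA crosslinks and stalled forks, read -4.42, -4.19 and -4.07 in the controls and -4.36, -4.25 and -4.93 in treated animals. Anthraquinone replicate 3 was the lowest array and the other treated arrays lay among the controls. The difference was -0.29 ± 0.20 (SE, interval -0.77 to 0.20, limma adjusted p = 0.499), and -0.08 without that array. The checkpoint kinase gene Chek1 had -0.23 ± 0.13 (SE), and the homologous repair gene Brca2 -0.01 ± 0.16 (SE). Exo1, the exonuclease that resects DNA ends, was named for its spread after its values were seen. It read -3.09, -2.83 and -3.06 in the controls and -2.40, -3.50 and -3.19 in treated animals, so the anthraquinone arrays lay on both sides of the controls. Brca1, whose product acts with BRCA2 in homologous repair, was not well above background on any array, at -7.93, -8.06 and -7.32 in the controls and -7.43, -7.31 and -6.80 in treated animals, and has no measured difference here. Fanci had no matched probe and was not analysed here.

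Of the genes that restore chromatin behind the fork, only Chaf1b could be tested, since Chaf1a and Uhrf1 had no matched probe and were not analysed here. Chaf1b, a subunit gene of the histone chaperone CAF-1, read -1.51, -1.59 and -1.85 in the controls and -1.70, -1.75 and -1.75 in treated animals. The groups overlapped, with a difference of -0.08 ± 0.10 (SE, limma adjusted p = 0.736).

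**Figure D2:**
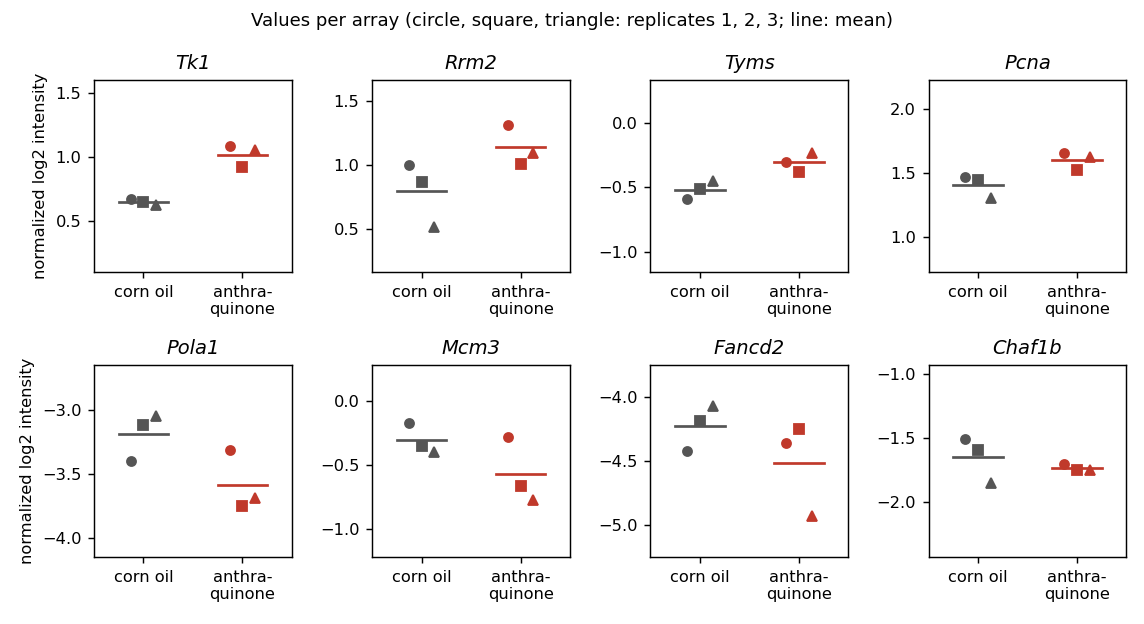
Normalized log2 intensity of the brightest probe (y axis, 1.5 log2 units in every panel) on each array for 8 replication and repair genes, with circles, squares and triangles for replicates 1, 2 and 3 and lines for group means. Tk1, Rrm2, Tyms and Pcna are higher without overlap, and the groups overlap for Pola1, Mcm3, Fancd2 and Chaf1b.

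In all, 4 of the 30 genes had anthraquinone arrays wholly above the corn oil arrays on the brightest probe (Tk1, Rrm2, Tyms and Pcna) and 0 wholly below. These shares were 15.0% and 10.2% of all entries, and 14.3% and 10.4% of those with a symbol. Among the other tested probes, the anthraquinone arrays lay wholly below on a probe each of Mcm2 (-0.27) and Rfc5 (-0.14). They lay wholly above on the second Tk1 probe (0.35). Probe choice mattered for some genes. Of the 15 genes with several tested probes, 10 had differences of 1 sign on all of them, and the signs were mixed for Mcm2, Mcm4, Mcm7, Rrm1 and Rfc5. Whether the probes also bind related transcripts was not examined.

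**Figure D3:**
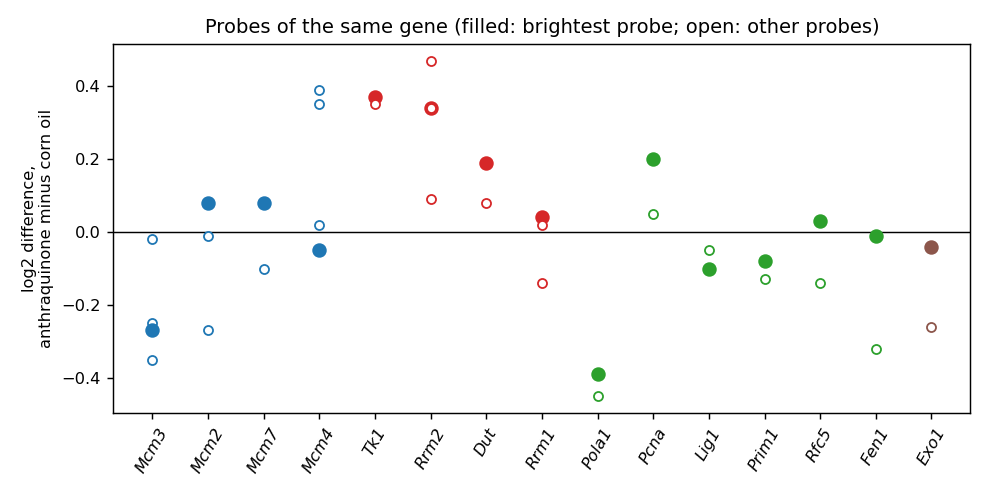
Log2 difference between anthraquinone and corn oil (y axis) for every tested probe of the 15 genes with more than 1 tested probe, filled for the brightest probe and open for the others. Tk1 probes lie at 0.35 and 0.37, Pola1 probes at -0.45 and -0.39, and Mcm4 probes from -0.05 to 0.39.

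The treated animals differed from one another across these genes. Anthraquinone replicate 1 had the highest level of the 3 treated arrays in 23 of the 30 genes (76.7%), where 35.2% of all entries with a symbol had their highest treated value on that array. By role this held for 7 of 10 licensing and firing genes, 8 of 10 polymerase and clamp genes, 4 of 5 nucleotide supply genes and 3 of 4 repair and checkpoint genes. On that array 16 of 30 genes lay above every corn oil array (29.6% of all entries with a symbol) and 3 below (24.4%). On anthraquinone replicate 2 the counts were 9 above (32.3%) and 12 below (28.3%), and on replicate 3 they were 6 above (33%) and 12 below (31%). The 9 genes below every corn oil array on both replicates 2 and 3 were Mcm3, Cdc45, Pola1, Rfc3, Rfc4, Lig1, Brca2, Exo1 and Chek1, where 18.2% of all entries with a symbol lay so. The corn oil arrays also differed. Replicate 1 was highest of the 3 controls in 16 genes (53.3%, against 33.9% of all entries with a symbol). Replicate 3 was lowest in 18 (60%, against 36.2%). Genes regulated together are not independent, and this pattern was noticed in the data and has no test.

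The median over the 30 genes, relative to the corn oil mean, was 0.04, 0.04 and -0.06 on the control arrays and 0.10, -0.07 and -0.07 on the treated arrays. For nucleotide supply it was 0.04, 0.00 and -0.08 in the controls and 0.33, 0.14 and 0.29 in treated animals, so all treated arrays lay above the controls. For repair and checkpoint genes it was -0.06, 0.08 and -0.04 in the controls and 0.17, -0.30 and -0.25 in treated animals, with treated arrays on both sides. Leaving out anthraquinone replicate 1, 2 or 3 in turn gave a median difference over the 30 genes of -0.08, 0.03 or 0.04.

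**Figure D4:**
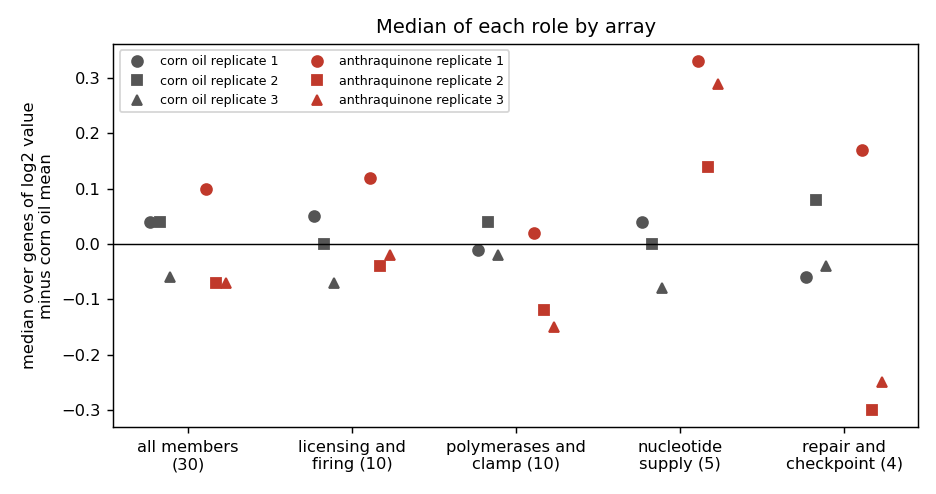
Median over the genes of each role of the log2 value minus the corn oil mean (y axis), for each array, with the number of genes in parentheses. The nucleotide supply medians of the anthraquinone arrays (0.14 to 0.33) lie above those of corn oil (-0.08 to 0.04), and in the repair role anthraquinone replicate 1 (0.17) lies apart from replicates 2 and 3 (-0.30 and -0.25).

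Corn oil replicate 1 was alone on its slide and the other 5 arrays shared a slide. Within the shared slide, which leaves 2 corn oil and 3 anthraquinone arrays, Tk1 differed by 0.38 ± 0.09, Rrm2 by 0.44 ± 0.15, Tyms by 0.18 ± 0.09, Pcna by 0.23 ± 0.09 and Pola1 by -0.49 ± 0.16 (SE), and 0 of 30 genes passed. On that slide the corn oil arrays lay in row 1 and the anthraquinone arrays in row 2, so row and group cannot be told apart there.

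Of 114 other genes of the same pathways, 86 were tested, 0 rose and 0 fell by limma after adjustment, and the median was 0.00. At an unadjusted p under 0.05, 6 were higher and 2 lower, where 9.47% and 7.65% of all entries were. Groups did not overlap for 9 with anthraquinone higher and 4 with it lower, where 15.0% and 10.2% of all entries did so. Among other nucleotide supply genes, 6 of 10 tested were above 0, against 51.6% of all entries, with a median of 0.08. At an unadjusted limma p under 0.05, 1 of the 10 was higher and 1 was lower. Dctpp1, whose product removes modified deoxycytidine triphosphates, had 0.48 ± 0.13 (SE, limma adjusted p = 0.207), with groups that did not overlap.

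Among genes of chromatin and histone supply, 4 of 8 tested had anthraquinone arrays wholly above the controls, against 15.0% of all entries. That count rests on the brightest probes. All other tested probes of Asf1a, Rbbp4 and Slbp had overlapping groups, while both Nasp probes were without overlap. Asf1a, Rbbp4 and Nasp were named after their values were seen. Slbp, which binds histone messenger RNA, read 0.05, 0.11 and 0.09 in the controls and 0.48, 0.22 and 0.41 in treated animals, a difference of 0.29 ± 0.09 (SE, limma adjusted p = 0.219), but its other probes gave 0.05 each. The maintenance DNA methyltransferase gene Dnmt1 had -0.13. In G1/S control, the E2F family gene E2f3 had 0.32 ± 0.07 (SE, limma adjusted p = 0.191) without overlap and the cyclin gene Ccnd2 -0.24. The second E2f3 probe gave 0.23 ± 0.19 (SE), with overlapping groups. In repair and checkpoint, 6 of 21 tested genes were above 0, against 51.6% of all entries. Of the remaining licensing and fork genes, 0 of 29 had an unadjusted p under 0.05. Mcm8, an MCM paralog gene that acts in repair, had 0.52 ± 0.25 (SE), with overlapping groups. Orc5 had -0.23 ± 0.09 (SE), with anthraquinone arrays wholly below the controls, but its second probe gave -0.10 ± 0.13 (SE) with overlap. The polymerase delta subunit gene Pold2 had 0.38 ± 0.23 and the replication protein A subunit gene Rpa3 -0.16 ± 0.10 (SE), both with overlap.

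Levels of other cell types and of mitosis were read beside these genes. Of 18 mitotic genes, 14 were tested, 13 were above 0 (51.6% of all entries) with a median of 0.31, and 0 passed by limma. At an unadjusted p under 0.05, 7 were higher and 0 lower, where 9.47% and 7.65% of all entries were. Their signal summed over the 15 genes with a probe, on the linear scale in units of the 75th percentile, ran from 9.07 to 11.6 in controls and from 12.1 to 12.9 in treated animals. A linear sum is weighted to the brightest gene, whose groups overlapped here, with a difference of 0.32 ± 0.17 (SE). The summed signal of 7 macrophage markers ran from 17.0 to 18.7 in controls and from 18.8 to 24.5 in treated animals. The markers did not share a direction: of 6 tested, 0 passed by limma, and the bright complement genes C1qa (0.39) and C1qb (0.31) were above the controls without overlap, while Csf1r (-0.23) was below without overlap. Adgre1 (-0.26), Cd14 (0.16) and Cd68 (0.10) overlapped. The sum of 6 T cell markers ran from 1.41 to 1.80 and from 1.51 to 2.08. Their part in the values above was not tested.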

How the data were processed

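Renal cortex RNA from 6 rats was hybridised to Agilent arrays designed on rn4, per the file headers. The authors deposited scanner files holding each spot's processed intensity, which is linear and came from Agilent's Feature Extraction software, version 10.7.1.1 per the file headers, and a value table of intensity whose scale no header states. Its columns matched the processed intensity divided by each array's 75th percentile within 0.01 log2 for 90.7 to 97.0% of probes, with column medians of 0.109 to 0.114, linear and not centred. The scanner values were used.

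Of 62976 spots, 61657 were non-control probes, and between 2 and 13 outlier-flagged spots per array were left out. Testing was limited to probes that every array of 1 group or of both read well above background (41310 probes). Accessions without version were matched to RefSeq (GRCr8), which named 27460 probes. The brightest probe stood for a gene and each unnamed probe for itself. Groups were compared with limma 3.58.1 (lmFit, eBayes; R 4.3.3), fitting the group alone, and p-values were adjusted by Benjamini-Hochberg across the 32663 entries with a threshold of 0.05. Groups and replicate numbers came from sample titles.

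The genes and lists were chosen with earlier results of these data known. All 38 genes were accounted for. Values per array were given for up to 3 genes per role without group overlap, or otherwise the largest difference, and for Pcna, Rrm2, Tk1, Mcm2 and Brca1, and of the wider list the smallest p per role and direction was named, and genes named beyond this rule are marked in the text. A few genes that the rule or the marker lists name are not reported here. The planned normexp correction (offset 50) used median spot signals, since the columns read hold medians. Alternatives covered scaling, background, filter, probe choice, variance model, blocks, threshold and each array left out. The procedure was tested on simulated data.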

Additional observations from a re-analysis of the deposited data

How the results depend on the processing

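Over 17 settings the median over the tested genes stayed between -0.08 and 0.04, and 12 of the 30 kept the sign of their difference in every setting, among them Tk1 (0.34 to 0.42), Rrm2 (0.20 to 0.44), Tyms (0.18 to 0.25), Pcna (0.12 to 0.24), Mcm3 (-0.41 to -0.16) and Pola1 (-0.52 to -0.15). The count past the threshold remained 0 in every setting but 1. Without the filter on dim probes it was 1, Tk1 (adjusted p = 0.0337), with 6611 of 49481 entries called in all, 6053 higher and 558 lower, a setting that adds entries not well above background. From the wider list 1 gene was called without the filter, with eBayes with trend and robust, and at a threshold of 0.10. Calls over all entries, 9 in the main analysis (5 higher, 4 lower), were 16 with the normexp correction (7 higher, 9 lower), 81 with trend and robust, 54 at 0.10, 2 with the slide as a block and 1 with the replicate block, and 1 to 25 when each array was left out (corn oil replicates 1, 2 and 3: 2, 1 and 25, and anthraquinone replicates 1, 2 and 3: 1, 1 and 4). The cause was not tested. Corn oil replicate 1 was alone on its slide, so the slide block and leaving out that array were the same fit, counted under both names. Same-numbered animals did not deviate together (correlations 0.02, -0.11 and 0.00), so the numbers are not shown to pair them. With the replicate block 0 of the replication genes passed, and it changed none of their calls. Other scaling or background correction put the median of all entries between 0.00 and 0.05, against 0.01. Cdc6 and Pole were well above background on only 2 of 3 anthraquinone arrays, which limits their precision.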
